A study of Mus musculus with 4 samples.

Results

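The genes described here code for the collagens, laminins, nidogens and perlecan of the extracellular matrix, together with Fn1, Sparc, Serpinh1, Mgp and Igfbp7. They were taken by gene name: every column of the form Col, number, a, number or Lama, Lamb or Lamc with a number, plus Nid1, Nid2, Hspg2 and the 5 genes just listed. Of the 41862 gene columns, 63 matched these names and 56 held at least 20 unique molecular identifiers (UMIs, 1 per captured RNA molecule) over the 4 libraries. Integrins were left out. The columns under that minimum included Col6a6 with 19 UMIs, Col9a1 with 15, Col20a1 with 14, Col19a1 and Col28a1 with 11 each, and Col10a1 with 7. Just above it lay Col24a1 with 24, Col17a1 with 25 and Lama1 with 26 UMIs. By role, 19 of the 56 belong to the basement membrane, 2 are Col15a1 and Col18a1, 11 are fibrillar and 6 fibril-associated collagens, 13 are beaded-filament or other collagens and 5 are the other matrix genes.

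Single-cell RNA was measured with inDrops version 3, a droplet method that counts UMIs near the 3′ end of transcripts. All 4 groups were C57BL6 Aldh1l1CreERT2-TdTomato mice, in which Cre under the Aldh1l1 promoter, active in astrocytes, marks cells with TdTomato after tamoxifen. Cells of the central nervous system were released with papain, passed through a 70 µm filter and a 30% Percoll step, and sorted as TdTomato+ LAMP1+ cells without surface TRAIL (TRAIL-) or with it (TRAIL+). Naive mice had no disease, and EAE mice were taken at the peak phase of experimental autoimmune encephalomyelitis, induced with 150 µg of MOG35-55 peptide per mouse in complete Freund's adjuvant. Disease and sort together give 4 groups, each a single library. The study design names 3 naive and 3 EAE mice, and the sources used here state neither their age nor whether their cells were pooled. With 1 library per group no difference between groups could be tested. Ratios below carry 95% intervals that cover counting error only, not the spread between barcodes or between mice.

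Basement membranes are thin sheets built from a type IV collagen network and a laminin network, which nidogens and perlecan (Hspg2) tie together. Each laminin is a trimer of an alpha, a beta and a gamma chain. In the brain, endothelial cells and pericytes share the basement membrane of capillaries, and the laminin with the alpha chain Lama2 is known for the outer, astrocyte-facing layer. Fibrillar collagens such as Col1a1, Col1a2 and Col3a1 form the fibres of connective tissue, in the brain mainly around larger vessels and in the meninges. Serpinh1 is the chaperone that folds procollagen in the endoplasmic reticulum. Sparc binds collagen, and Mgp, matrix Gla protein, keeps matrix from calcifying.

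The 4 libraries kept 1569 to 2225 barcodes each, 7822 in all, with at least 500 UMIs and at most 20% mitochondrial counts, after 77 doublet calls were removed. Median depth was 947 UMIs in naive TRAIL-, 1178 in EAE TRAIL-, 1504 in naive TRAIL+ and 1904.5 in EAE TRAIL+. Any pair of libraries shared 22 to 40 barcode strings. Barcodes were clustered without the 63 columns that matched the names, and the clusters named from marker genes. The labels call the cells astrocytes, but astrocyte-like barcodes were 24 of 2218 in naive TRAIL- (1.08%), 3 of 1569 in EAE TRAIL- (0.191%), 128 in naive TRAIL+ (5.75%) and 8 in EAE TRAIL+ (0.442%). Most of the naive TRAIL- library was endothelial-like (51.4%), mural (22.5%, pericyte-like with a few smooth muscle-like barcodes) or microglia-like barcodes (14%). In EAE TRAIL- endothelial-like barcodes were 31.1%, mural 28.5% and microglia-like 6.95%, with 221 monocyte-like barcodes against 18 in the naive library. A cluster led by C4b and Cd74 stayed unnamed and held 10 barcodes in naive TRAIL-, 192 in EAE TRAIL-, 36 in naive TRAIL+ and 721 in EAE TRAIL+. Both TRAIL+ libraries were mostly microglia-like, 83.6% in naive and 50% in EAE. The matrix genes are therefore described by cell class, mainly in the TRAIL- libraries, where the vascular classes are large.

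Upstream sequence was read for the 39 of 56 genes with an entry in the RefSeq promoter table (GRCm38.p6), as the 250 bases before the start given there. A group of 4 is printed because the results below turn on these genes and no annotated exon lies in their windows: Serpinh1 (chr7:99353240-99353489, minus strand), Igfbp7 (chr5:77408046-77408295, minus strand), Col27a1 (chr4:63215162-63215411, plus strand) and Lama2 (chr10:27616943-27617192, minus strand). The windows of Col27a1 and Lama2 lie inside the GENCODE gene spans given below, which begin further upstream. Capitals mark matches, on either strand, to the GC box GGGCGG, the SMAD-binding element CAGAC and the heat shock element core GAANNTTC.
Serpinh1: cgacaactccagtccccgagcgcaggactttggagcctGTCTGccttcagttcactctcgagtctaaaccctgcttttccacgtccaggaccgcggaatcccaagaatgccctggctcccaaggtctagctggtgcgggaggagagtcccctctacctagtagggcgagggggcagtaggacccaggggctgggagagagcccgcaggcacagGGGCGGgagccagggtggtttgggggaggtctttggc
Igfbp7: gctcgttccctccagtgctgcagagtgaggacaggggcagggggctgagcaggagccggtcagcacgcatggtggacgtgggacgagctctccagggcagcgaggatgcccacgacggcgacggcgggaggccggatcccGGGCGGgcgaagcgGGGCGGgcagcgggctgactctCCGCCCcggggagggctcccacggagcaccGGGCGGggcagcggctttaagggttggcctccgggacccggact
Col27a1: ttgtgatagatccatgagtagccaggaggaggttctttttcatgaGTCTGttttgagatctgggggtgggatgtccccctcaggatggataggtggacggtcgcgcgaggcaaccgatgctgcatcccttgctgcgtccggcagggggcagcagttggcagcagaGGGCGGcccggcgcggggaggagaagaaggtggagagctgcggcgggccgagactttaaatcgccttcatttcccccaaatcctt
Lama2: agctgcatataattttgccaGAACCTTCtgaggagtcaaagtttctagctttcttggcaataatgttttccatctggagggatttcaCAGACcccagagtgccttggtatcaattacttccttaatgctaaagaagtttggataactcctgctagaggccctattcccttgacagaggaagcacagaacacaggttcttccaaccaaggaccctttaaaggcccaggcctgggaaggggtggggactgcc
Col4a1 and Col4a2, the 2 chains of the common type IV collagen, are read in opposite directions from start sites 21 bases apart on chromosome 8. They are known to share a promoter. The 22 bases from one start site to the other, on the strand of Col4a2, are shown because both genes were measured in the same cells:
Col4a1 and Col4a2: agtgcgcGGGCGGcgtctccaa

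The GC box was in the window of 26 of the 39 genes (66.7%), against 32.7% of all 32851 promoters of this length, and the genes' median GC content was 60.4% against 52.4%. Igfbp7 had 4 GC boxes in 250 bases at a GC content of 74.0%, and Lama2 had none at 47.2%. The SMAD-binding element was in 19 of 39 (48.7%, against 42.2% of all), the CCAAT box in 14 (35.9% against 33.8%) and the TATA box core TATAAA in 4 (10.3% against 12.4%). The heat shock core was in 2 genes, Col4a5 and Lama2 (5.13% against 6.69%). The STAT site TTCNNNGAA was in 2, Col6a5 and Lamb2 (5.13% against 7.02%), and the AP-1 site TGANTCA in Col6a1 alone (2.56% against 6.75%). Matches to different motifs could overlap. They describe these letters in these windows only.

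In naive TRAIL-, 49 of the 56 genes had at least 10 UMIs. For 36 of them the class with the highest level itself held at least 10 UMIs. That class was fibroblast-like for 15, pericyte-like for 11, endothelial-like for 4, microglia-like for 3, astrocyte-like for 2 and choroid plexus-like for 1. Levels are given as UMIs per 1000000 UMIs of the class (CPM), with an exact Poisson 95% interval where shown. They depend on transcript capture, so they are compared between classes for 1 gene and not between genes.

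**Figure D1:**
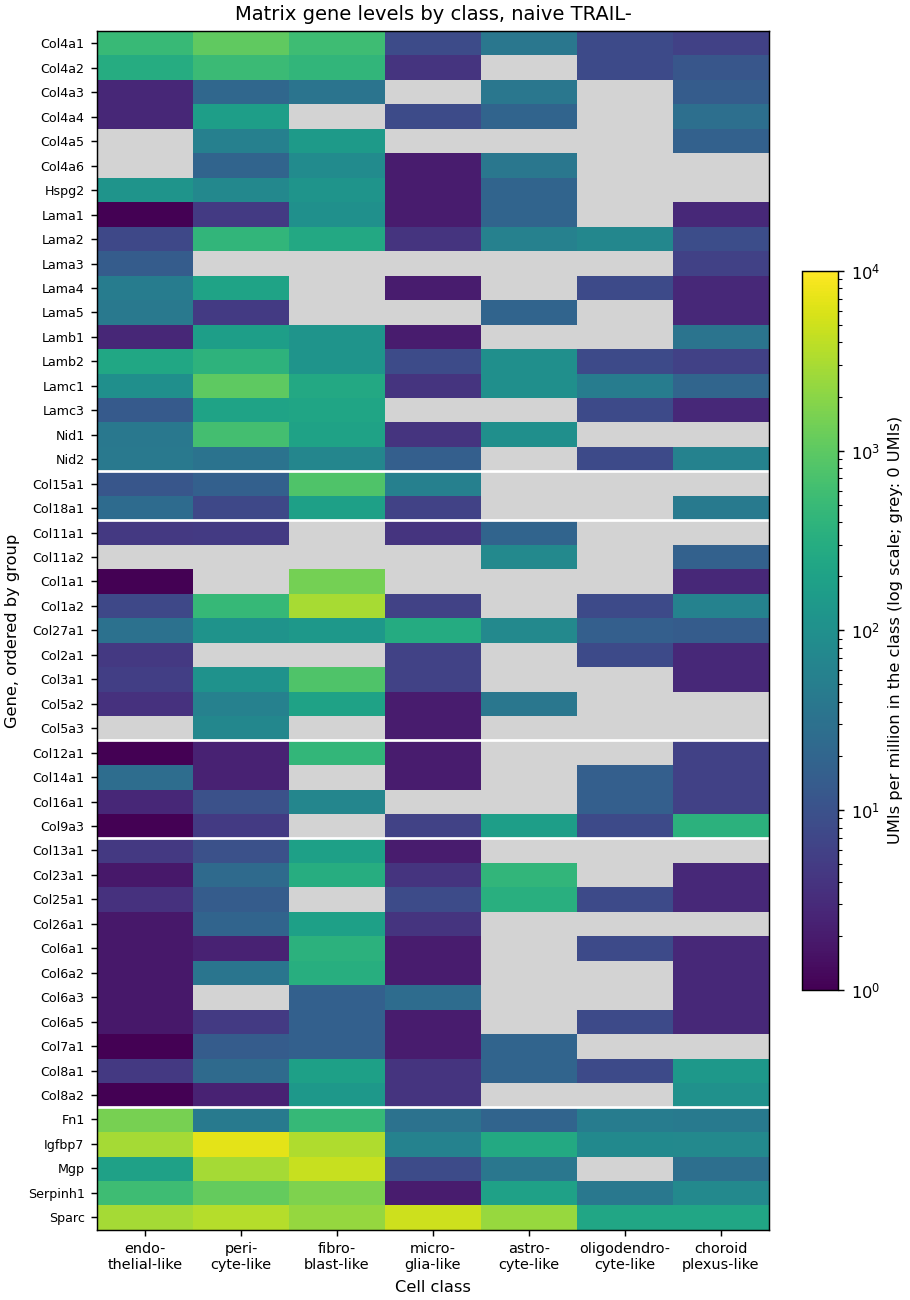
Level of 49 matrix genes (rows, grouped by role) in 7 cell classes of the naive TRAIL- library (columns), as CPM on a logarithmic colour scale, with grey for 0 UMIs. Basement membrane genes are seen in the endothelial-like, pericyte-like and fibroblast-like columns, Col1a1 in the fibroblast-like column (1467 CPM) and Col9a3 mainly in the choroid plexus-like column (378 CPM).

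Both chains of type IV collagen marked the vascular classes. Col4a1 (chr8:11198423-11312826, minus strand, GRCm38) was at 1062 (965 to 1166) CPM in pericyte-like, 563 (387 to 790.4) in fibroblast-like and 491 (451 to 535) in endothelial-like barcodes of naive TRAIL-, and at 8.12 in microglia-like ones. The fibroblast-like and endothelial-like levels did not differ beyond their intervals. Thinned to 500 UMIs per barcode, 33.7% (29.6 to 38.1) of pericyte-like and 17.5% (15.4 to 19.9) of endothelial-like barcodes had a Col4a1 UMI, against 0.322% (0.00814 to 1.78) of microglia-like ones, which should lack it. Without thinning the shares were 46.5%, 27.2% and 1.29%, at median depths of 791, 894 and 1541 UMIs. Col4a2 (chr8:11312805-11449287, plus strand) followed the same order, with 525, 426, 304 and 4.06 CPM. In the remaining classes with at least 20 barcodes (oligodendrocyte-like, choroid plexus-like, astrocyte-like, and monocyte- or macrophage-like) Col4a1 had 1 or 2 UMIs each and Col4a2 had 0 to 4.

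Of the rarer type IV chains, Col4a4 and Col4a5 had more UMIs in mural than in endothelial-like barcodes. Col4a4 (chr1:82448423-82586849, minus strand), known for the kidney filter, had 73 of its 94 naive TRAIL- UMIs in pericyte-like barcodes, 177 (138 to 222) CPM, and 3 in endothelial-like ones. These UMIs lay in 27 pericyte-like barcodes, with up to 14 in 1 barcode. Col4a5 had 23 UMIs in pericyte-like (55.6 CPM), 9 in fibroblast-like (153 CPM) and 0 in endothelial-like barcodes. Col4a3 and Col4a6 had 24 and 16 UMIs in the library, 9 and 8 of them in pericyte-like barcodes.

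Laminin chains divided between the 2 vascular classes. Lama2 (chr10:26980036-27619758, minus strand), the alpha chain of the outer vascular layer, was at 426 (365 to 493) CPM in pericyte-like and 256 (143 to 422) in fibroblast-like barcodes, against 7.34 (3.17 to 14.5) in endothelial-like ones. In pericyte-like barcodes were also Lama4 (206 CPM, 47.7 in endothelial-like), Lamb1 (172 and 2.75), Lamc1 (1013 and 99.9) and Lamc3 (213 and 13.8). Lamb2, the beta chain typical of vessel walls, was shared more evenly at 392 (334 to 457) and 243 (215 to 274) CPM. A pair of alpha chains lay mostly in endothelial-like barcodes: Lama5 with 45 of its 55 UMIs and Lama3 with 16 of 19. Lama1 and Lamb3 had 12 and 7 UMIs in the library.

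Fibroblast-like barcodes had 256 CPM of Lamc1, 119 of Lamb2, 119 of Lamb1 and 222 of Lamc3. Lama4 had 0 UMIs there, which allows up to 3 UMIs in that class. Choroid plexus-like barcodes held 12 UMIs of Lamb1 (35.1 CPM). Of the other 5 laminin chains with at least 200 UMIs (Lama2, Lama4, Lamb2, Lamc1 and Lamc3), microglia-like barcodes held 0 to 4 UMIs each. Lama2 in astrocyte-like barcodes was 3 UMIs (57.9 CPM) in naive TRAIL-. In the larger astrocyte-like class of naive TRAIL+ it was 22 UMIs in 17 of 128 barcodes (118 (74.0 to 179) CPM). In oligodendrocyte-like barcodes of naive TRAIL- it was 9 UMIs (71.9 CPM).

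The linkers of the basement membrane were not shared alike by the vascular classes. Nid1 (nidogen 1), which joins laminin to type IV collagen, was at 631 (557 to 713) CPM in pericyte-like and 39.4 (28.5 to 53.1) in endothelial-like barcodes. Nid2 was at 33.9 (18.5 to 56.8) and 41.3 (30.1 to 55.2), within counting error of each other, and at 58.6 (35.8 to 90.5) in choroid plexus-like barcodes. Hspg2 (perlecan), a heparan sulphate proteoglycan, was at 117 (97.9 to 139.6) CPM in endothelial-like and 72.5 (48.9 to 104) in pericyte-like barcodes, with intervals that just meet, and at 119 in fibroblast-like ones, from 7 UMIs. Microglia-like barcodes had 2, 8 and 1 UMIs of the 3 genes.

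Col15a1 and Col18a1 carry sugar chains and lie at the border of basement membranes and stroma. Col15a1 (chr4:47208161-47313167, plus strand) had 47 of 94 UMIs in the 30 fibroblast-like barcodes, 802 (589 to 1066) CPM. A further 27 UMIs were in microglia-like barcodes, 54.8 (36.1 to 79.7) CPM, above the 11.9 (6.35 to 20.4) CPM of endothelial-like ones. In naive TRAIL+ it had 121 UMIs in microglia-like barcodes, 39.5 (32.7 to 47.1) CPM. Col18a1, the source of endostatin, had 27 UMIs in endothelial-like (24.8 CPM), 11 in fibroblast-like (188) and 15 in choroid plexus-like barcodes (43.9).

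The fibrillar collagens separated fibroblast-like from pericyte-like barcodes. Col1a1, 1 of the 2 chains of type I collagen, had 86 of its 89 UMIs in fibroblast-like barcodes, 1467 (1173 to 1811) CPM, and 0 among 492 pericyte-like barcodes. Col1a2 (chr6:4504814-4541544, plus strand), the other chain, was at 2951 (2527 to 3424) CPM in fibroblast-like and also at 484 (419 to 556) in pericyte-like barcodes, against 7.34 in endothelial-like ones. Col3a1 was at 785 (574 to 1046) and 109 (79.4 to 146) CPM, and Col5a3 had 29 of 31 UMIs in pericyte-like barcodes. Col5a2 had 24 UMIs in pericyte-like and 12 in fibroblast-like barcodes. Choroid plexus-like barcodes held 20 UMIs of Col1a2 (58.6 CPM). The remaining fibrillar chains, Col2a1, Col5a1, Col11a1, Col11a2 and Col24a1, had 2 to 14 UMIs in the library.

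Col27a1 (chr4:63214004-63334991, plus strand), a fibrillar collagen of cartilage whose annotated span also holds Mir455, was found mostly in microglia-like barcodes. It was at 284 (239 to 335) CPM there, against 114 (83.5 to 151) in pericyte-like and 31.2 (21.6 to 43.6) in endothelial-like ones. Fibroblast-like barcodes had 8 UMIs (136 CPM). Microglia-like barcodes held 57.6% (51.1 to 63.9) of its UMIs in naive TRAIL- and 95.2% (93.6 to 96.6) in naive TRAIL+, where its level was 267 (249 to 286) CPM. Col6a3, a chain of beaded-filament type VI collagen, had 13 of 17 UMIs in microglia-like barcodes of naive TRAIL- and 93 in those of naive TRAIL+ (30.3 CPM). Its partner chains Col6a1 and Col6a2 had 22 of 28 and 19 of 38 UMIs in fibroblast-like barcodes, and 1 UMI each in microglia-like ones. The remaining chains Col6a4 and Col6a5 had 4 and 21 UMIs in the library. They did not gather in 1 class.

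Several other collagens were largely held by 1 class. Col12a1, which coats collagen fibrils, had 26 of 36 UMIs in fibroblast-like barcodes. Col14a1 had 29 of 35 in endothelial-like barcodes, and 19 of these were in the smaller endothelial cluster, which is led by Gkn3 and holds 187 of the 1141 endothelial-like barcodes. Col9a3 (chr2:180597790-180622189, plus strand), a fibril-associated chain, had 129 of 145 in the 89 choroid plexus-like barcodes, 378 (315 to 449) CPM, and 9 in astrocyte-like ones (174 CPM). Its other classes had 0 to 3 UMIs each. Col8a2 and Col8a1, the chains of short-chain type VIII collagen, were also found there: Col8a2 with 36 of 51 UMIs (105 CPM) and Col8a1 with 47 of 77 (138 CPM, against 188 from 11 UMIs in fibroblast-like barcodes).

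In astrocyte-like barcodes the transmembrane collagens Col23a1 and Col25a1 rested on 1 to 3 barcodes. Col23a1 had 22 UMIs in 3 of the 24 barcodes, 16 of them in 1 barcode, and Col25a1 had all its 17 in 1 barcode. In the 128 astrocyte-like barcodes of naive TRAIL+ Col23a1 had 3 UMIs. Fibroblast-like barcodes held 18 UMIs of Col23a1 (307 CPM). The rest of this group, Col7a1, Col13a1, Col16a1, Col17a1, Col22a1, Col26a1 and Col9a2, had 5 to 24 UMIs in the library.

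The 5 other matrix genes were the most counted. Sparc (chr11:55394500-55423183, minus strand) was at 4918 (4724 to 5118) CPM in microglia-like, 3606 (3425 to 3794) in pericyte-like, 2864 (2764 to 2966) in endothelial-like, 2432 (2026 to 2895) in astrocyte-like and 2371 (1993 to 2799) in fibroblast-like barcodes. The last 3 overlapped in their intervals. It was far lower in monocyte- or macrophage-like (242 CPM, 12 UMIs), oligodendrocyte-like (232) and choroid plexus-like barcodes (234). Sparc is a known product of microglia and of vessel cells.

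Igfbp7 (chr5:77349240-77408041, minus strand, overlapping Polr2b and Gm34648 on the other strand), a secreted protein of blood vessels, was at 6839 (6589 to 7096) CPM in pericyte-like, 3394 (2939 to 3899.7) in fibroblast-like and 2885 (2785 to 2987) in endothelial-like barcodes. In microglia-like barcodes it was at 58.9. Mgp (chr6:136872435-136875823, minus strand) was at 4605 (4072 to 5188) CPM in fibroblast-like, 2936 (2773 to 3106) in pericyte-like, 196 (171 to 224) in endothelial-like and 8.12 in microglia-like barcodes. Serpinh1 (chr7:99345376-99353239, minus strand) followed the same order, 1688 (1372 to 2056), 1119.7 (1020.0 to 1226), 577 (533 to 624) and 2.03 CPM, and was also seen in astrocyte-like barcodes (10 UMIs in naive TRAIL-, 39 in naive TRAIL+, 193 and 209 CPM). In the other classes of naive TRAIL- with at least 20 barcodes these 3 genes had 0 to 26 UMIs each.

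Fn1 (fibronectin, chr1:71585520-71653200, minus strand), which cells assemble into fibrils, had the opposite order to Col4a1 among the vascular classes. It was at 1505 (1433 to 1579) CPM in endothelial-like, 478 (317 to 690.2) in fibroblast-like and 43.5 (25.8 to 68.8) in pericyte-like barcodes, and at 32.5 in microglia-like ones. Endothelial-like barcodes held 92.1% (90.7 to 93.3) of its UMIs in this library. Thinned to 500 UMIs, 41.8% (38.9 to 44.7) of endothelial-like, 1.42% (0.574 to 2.91) of pericyte-like and 1.93% (0.711 to 4.15) of microglia-like barcodes had a Fn1 UMI (56.4%, 3.05% and 4.82% without thinning). The 18 monocyte-like barcodes had 57 UMIs, 1186 CPM, from 4 barcodes.

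**Figure D2:**
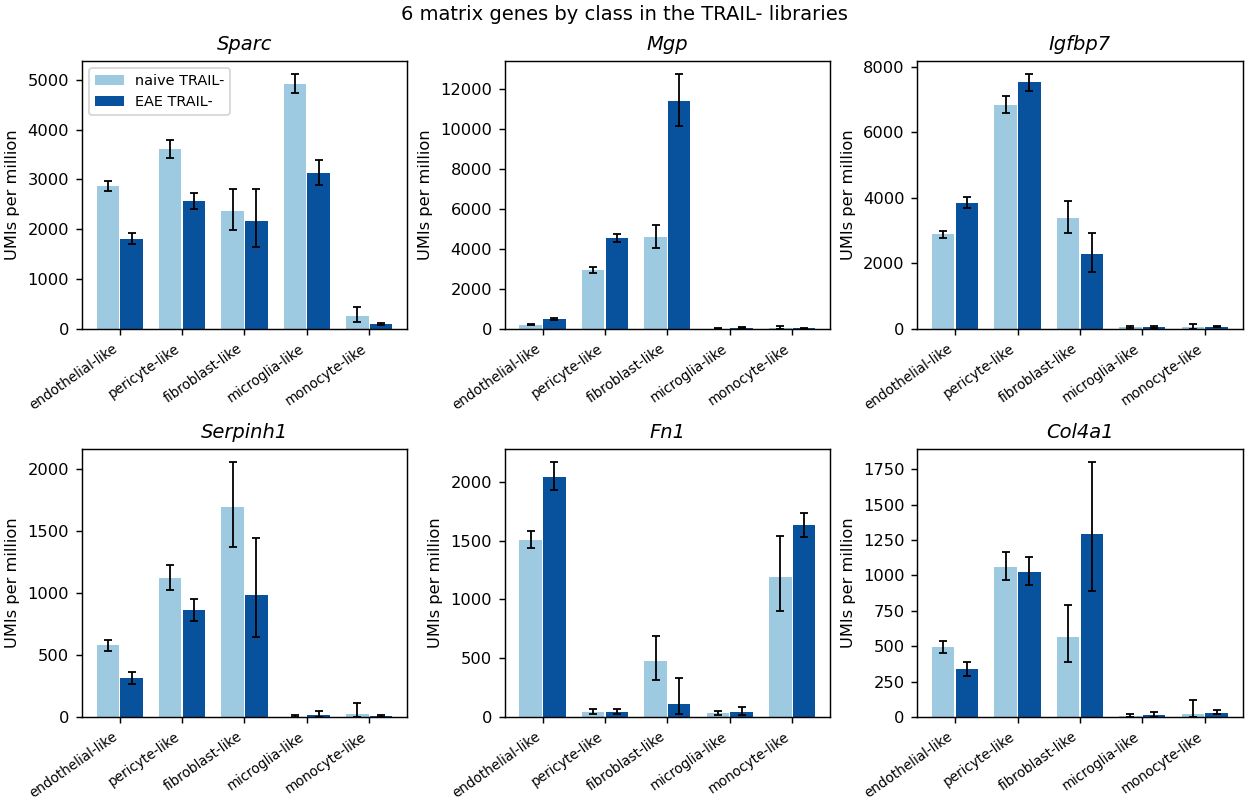
Levels of Sparc, Mgp, Igfbp7, Serpinh1, Fn1 and Col4a1 (CPM, linear axis from 0) in 5 cell classes of the naive and the EAE TRAIL- library, with bars for the level of the single library and error bars for its 95% Poisson interval. Sparc is lower in EAE in endothelial-like (2864 and 1813) and microglia-like barcodes (4918 and 3129). Mgp is higher in EAE in endothelial-like barcodes (196 and 478).

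EAE was compared with naive within each class of the TRAIL- libraries, for genes with at least 30 UMIs over both. A gene was counted as higher or lower past a 2-fold ratio. In endothelial-like barcodes (1141 naive and 488 EAE) 17 of the 56 genes could be compared. Of these 1 was at least 2-fold higher, against 4.72% of 7051 genes, and 1 was at least 2-fold lower, against 6.65%, so the share past 2-fold was close to that of all genes (11.4% either way). The median log2 ratio was -0.09 for the 17 and -0.05 for all. Summed over all 56 genes, the endothelial-like level was 9657 and 9924 CPM, a ratio of 1.03 (0.994 to 1.06). The balance within the sum differed: Sparc, Serpinh1 and Col4a1 were lower and Mgp, Fn1 and Igfbp7 higher. Of the 10532 naive UMIs in the sum, 8753 came from Fn1, Sparc, Serpinh1, Mgp and Igfbp7. Without these 5 genes the summed level was at 0.873 of naive, with an interval that excludes 1. The basement membrane genes together were at 0.876 (0.801 to 0.958).

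Type IV collagen as a whole was at 0.797 (0.702 to 0.904) of its naive level in endothelial-like barcodes and the laminins at 0.998 (0.855 to 1.16). Col4a1 went from 536 UMIs (491 CPM) in naive to 182 (337 CPM) in EAE, a ratio of 0.686 (0.576 to 0.813). Its partner Col4a2 was at 304 and 287 CPM, 0.943 (0.774 to 1.14). The Col4a1 interval excludes 1 and that of Col4a2 holds it. Lamc1, the usual gamma chain, was at 99.9 and 59.2 CPM, 0.593 (0.387 to 0.886). The other basement membrane genes compared had intervals that held 1: Lamb2 at 1.16, Lama4 at 0.815, Lama5 at 1.17, Nid1 at 0.939, Nid2 at 1.03 and Hspg2 at 0.852 (0.608 to 1.18). With at most 1 UMI of other vascular markers per barcode Nid1 was at 0.332 (0.100 to 0.872), an interval that excludes 1. Over all alternatives Nid1 ranged from 0.332 to 1.35, Nid2 from 0.596 to 1.08 and Lama4 from 0.520 to 1.07.

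Of the other collagens of endothelial-like barcodes, Col18a1 was at 1.42 and Col27a1 at 0.713 of the naive level, from 27 and 34 naive UMIs. The direction of Col27a1 turned with the processing, from 0.305 after thinning to 1.89 at a minimum of 1000 UMIs per barcode. Col14a1, the 1 gene past 2-fold downward, had 29 UMIs in naive and 6 in EAE, 0.418 (0.142 to 1.02), so its interval holds 1. In the cluster led by Gkn3, which held most of them, it had 19 and 1.

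Serpinh1 had 629 UMIs (577 CPM) in naive and 168 (311 CPM) in EAE endothelial-like barcodes, a ratio of 0.539 (0.452 to 0.640). Sparc was at 2864 and 1813 CPM, 0.633 (0.589 to 0.680). Both lie short of the 2-fold line, with intervals well below 1. Fn1 was at 1505 and 2044 CPM, 1.36 (1.26 to 1.47), and Igfbp7 at 2885 and 3855, 1.34 (1.26 to 1.41).

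Mgp was the 1 gene past 2-fold upward in endothelial-like barcodes, with 214 UMIs (196 CPM) in naive and 258 (478 CPM) in EAE, 2.43 (2.02 to 2.93). These lay in 71 and 61 barcodes, with at most 39 and 46 UMIs in 1 barcode. The ratio was 1.84 (1.44 to 2.36) in the cluster led by Gkn3 (143 and 122 UMIs), and 3.81 (2.84 to 5.15) in the larger one led by Ctla2a (71 and 136). Since pericytes and fibroblasts carry much Mgp, their markers were summed in the endothelial-like class. Pericyte markers were at 1446 CPM in naive and 1199.8 in EAE (14 of 14 seen in each), against 40931 in mural barcodes. Fibroblast markers were at 97.2 and 163 CPM (10 and 8 of 14 seen). With barcodes limited to at most 1 UMI of the other vascular markers (pericyte and smooth muscle) the Mgp ratio was 3.84. Fibroblast markers were not limited there. The part of RNA from these other cells in the Mgp value was not tested.

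By endothelial cluster, 2 of 11 genes compared in the Gkn3-led cluster were at least 2-fold lower, where 17.7% of 1988 genes were past 2-fold either way: Serpinh1 at 0.420 (0.267 to 0.637) and Lamc1 at 0.400 (0.120 to 1.05), the latter from 27 and 5 UMIs. In the Ctla2a-led cluster 1 of 15 was past 2-fold, Mgp, against 12.5% of 6361 genes. The Gkn3-led cluster had none of the endothelial markers among its 10 leading genes and 4 among its first 50.

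**Figure D3:**
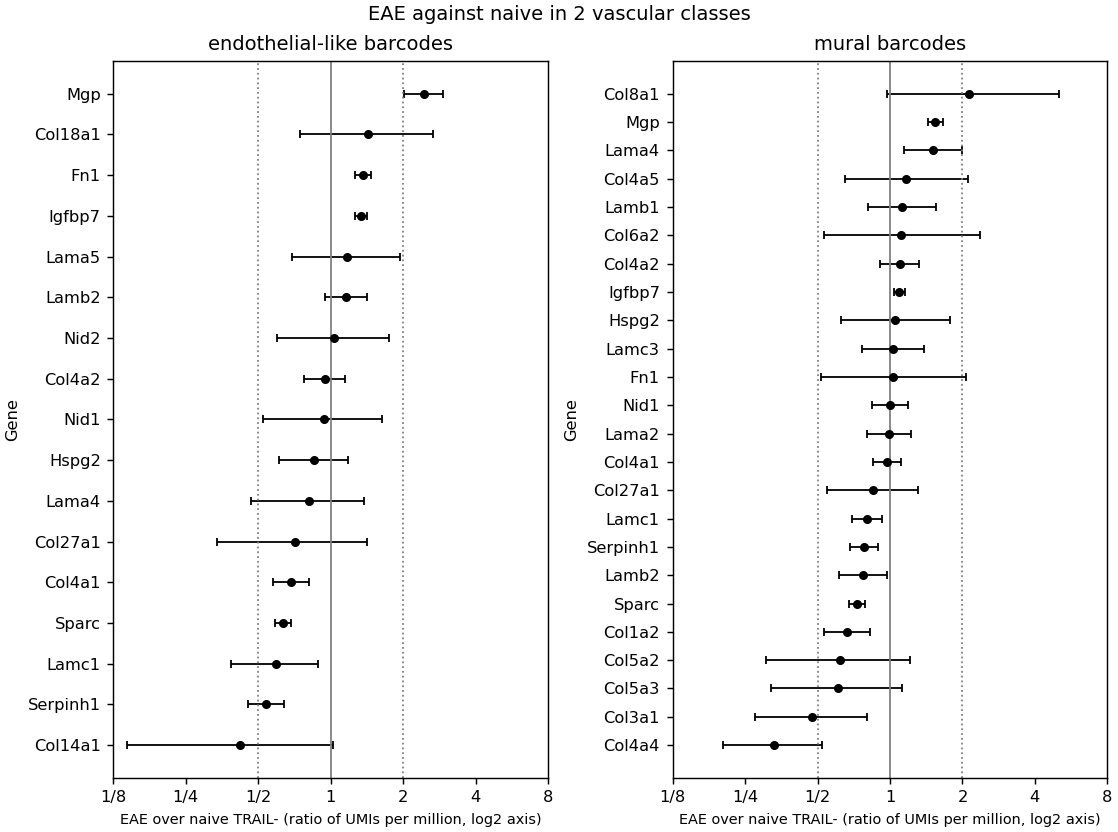
EAE over naive ratio of CPM for the 17 matrix genes compared in endothelial-like and the 24 compared in mural barcodes of the TRAIL- libraries (points, logarithmic axis), with 95% counting intervals as lines and the 2-fold limits dotted. Most points lie between the dotted lines. Mgp in endothelial-like (2.43) and Col8a1 in mural barcodes (2.13) lie above the upper one, and Col14a1 in endothelial-like (0.418), Col4a4 (0.330) and Col3a1 in mural barcodes (0.474) below the lower one.

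In mural barcodes (500 naive and 447 EAE) the summed basement membrane genes were near the naive level, with single genes on either side, and the summed fibrillar collagens were lower. Of 24 genes compared, 1 was at least 2-fold higher, against 4.51% of 5187 genes, and 2 were at least 2-fold lower, against 5.98% (10.5% either way). The median log2 ratio was -0.01 for the 24 and -0.04 for all. The sum over the 56 genes was 20519 and 20950.5 CPM, 1.02 (0.992 to 1.05). Basement membrane genes together were at 0.949 (0.893 to 1.01) and fibrillar collagens at 0.677 (0.574 to 0.797) of the naive level.

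Col4a1 was at 1055 CPM in naive and 1022 in EAE mural barcodes, 0.969 (0.849 to 1.11), and Col4a2 at 517 and 567, 1.10 (0.913 to 1.32). Col4a4 had 73 UMIs (173 CPM) in naive and 26 (57.2 CPM) in EAE, 0.330 (0.203 to 0.523), and 0.346 without the barcode richest in it in each library. Col4a5 had 23 and 29 UMIs, 1.17, and 0.649 without its richest barcodes, with a range of 0.406 to 1.28 over all alternatives. The common chains thus stayed within counting error, while Col4a4 had the lowest ratio of the 24 genes.

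Among the laminins, Lama4, an alpha chain of endothelial basement membranes, was higher in EAE, with 85 and 138 UMIs, 202 and 303 CPM, 1.51 (1.14 to 2.0). Lamc1, at 1003 and 807 CPM, had a ratio of 0.805 (0.698 to 0.927), and Lamb2 one of 0.770 (0.612 to 0.968), so both were lower. Lama2 at 0.989 (0.803 to 1.22), Lamb1 at 1.12, Lamc3 at 1.03, Nid1 at 0.998 (0.841 to 1.18) and Hspg2 at 1.05 had intervals that held 1. Over the alternatives Hspg2 ranged from 0.987 to 2.29.

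For the fibrillar collagens of mural barcodes, Col1a2 had 205 UMIs in naive and 147 in EAE, 486 and 323 CPM, 0.665 (0.534 to 0.826). Col3a1, the chain of type III collagen, had 45 and 23, 107 and 50.6 CPM, 0.474 (0.274 to 0.800). Col5a2 at 0.618 and Col5a3 at 0.608 rested on 24 and 29 naive UMIs, and Col27a1 was at 0.848. These 3 moved with the processing: over the alternatives Col5a2 ranged from 0.254 to 1.27, Col5a3 from 0.456 to 1.93 and Col27a1 from 0.507 to 1.06, with both type V chains above 1 at a minimum of 1000 UMIs per barcode. Col6a2 was at 1.11 from 15 and 18 UMIs. Col8a1 had 10 and 23, 2.13 (0.976 to 5.02), past 2-fold but with an interval that holds 1 and a range of 1.02 to 4.06 over the alternatives.

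Mgp was higher and the chaperone Serpinh1 lower in mural barcodes too. Mgp had 1215 UMIs in naive and 2022 in EAE, 2881 and 4446 CPM, 1.54 (1.44 to 1.66). Serpinh1 was at 1122 and 877 CPM, 0.782 (0.683 to 0.896), and Sparc at 3616 and 2649.6, 0.733 (0.679 to 0.791). Igfbp7 was at 6806 and 7443 CPM, 1.09 (1.04 to 1.15), and Fn1 at 1.03 from 18 and 20 UMIs, ranging from 0.762 to 1.58 over the alternatives. Fibroblast markers in the mural class were at 479 CPM in naive and 831 in EAE (9 and 8 of 14 seen, Lum, Dpt and Gjb2 at 0 in both), against 18112 and 21991 in the fibroblast-like class. Endothelial markers were at 1831 and 1533 CPM. Their part in these results was not tested. With at most 1 UMI of other vascular markers per barcode the Mgp ratio in mural barcodes was 1.39.

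Fibroblast-like barcodes numbered 30 in naive and 14 in EAE, too few for the comparison, so their values stand as a description. Col1a1 had 86 and 26 UMIs (1467 and 986 CPM), Col1a2 173 and 51 (2951 and 1934) and Col15a1 47 and 5 (802 and 189.6). All 3 had a lower level in EAE, in a class of 58634 UMIs in naive and 26375 in EAE. No interval is given for these 3, so no difference beyond counting error is stated for them. Fn1 had 28 and 3 UMIs, 0.238 (0.0463 to 0.771), and Serpinh1 99 and 26, 0.584 (0.364 to 0.907). Col4a1 went the other way with 33 and 34 UMIs, 2.29 (1.38 to 3.82). Mgp had 270 and 301 UMIs, and 219 of the EAE ones were in 1 barcode. Pericyte markers in this class were at 2251 CPM in naive and 7279.6 in EAE (13 of 14 seen in each), and their part in these values was not tested.

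In microglia-like barcodes the set was mainly Sparc. Over the 56 genes the level was 5537 and 3675 CPM in naive and EAE TRAIL-, 0.664 (0.610 to 0.721). Of 4 genes compared, 1 was at least 2-fold lower, against 11.9% of 3738 genes, and 0 were higher, against 7.84% (19.7% either way). Sparc had 2423 UMIs in 311 naive and 614 in 109 EAE barcodes, 4918 and 3129 CPM, 0.636 (0.581 to 0.695). Thinned to 500 UMIs per barcode, 84.2% (79.7 to 88.1) and 63.3% (53.5 to 72.3) had a Sparc UMI (95.2% and 79.8% without thinning, at median depths of 1541 and 1854 UMIs). Monocyte- or macrophage-like barcodes, where Sparc was low, gave 5.0% and 3.15% after thinning.

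The TRAIL+ libraries hold more microglia-like barcodes, 1861 in naive and 905 in EAE, and give the same comparison in separate libraries. There Sparc was at 5226 and 3413 CPM, 0.653 (0.634 to 0.673), with 86.8% (85.2 to 88.3) and 71.5% (68.4 to 74.4) of barcodes carrying a Sparc UMI after thinning. The 2 ratios, 0.636 in TRAIL- and 0.653 in TRAIL+, overlap in their intervals. The sources used here do not state whether the 2 sorts came from different mice, so this overlap is not a replicate. In the unnamed cluster led by C4b and Cd74 Sparc was at 3052 CPM in naive TRAIL- (46 UMIs), 2455 in EAE TRAIL-, 3107 in naive TRAIL+ and 2141 in EAE TRAIL+, below the microglia-like level of the same library each time.

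**Figure D4:**
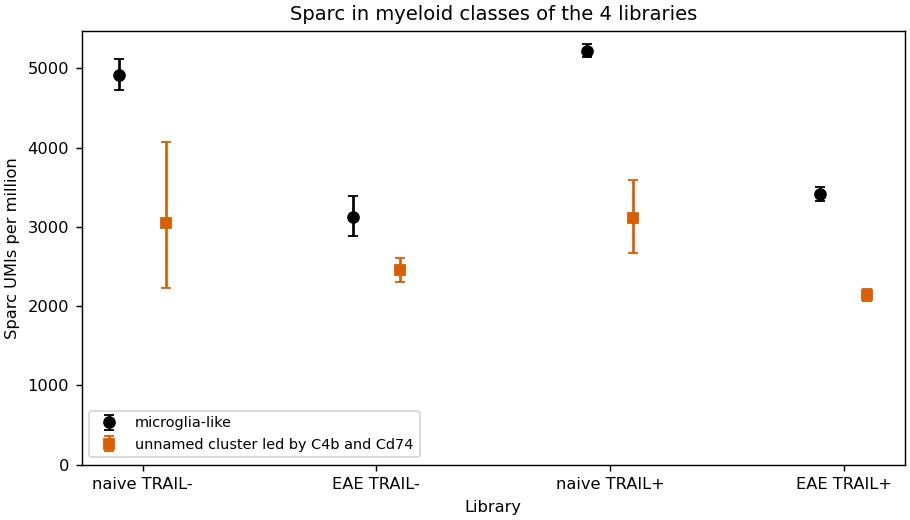
Sparc level (CPM, linear axis from 0) in microglia-like barcodes and in the unnamed cluster led by C4b and Cd74, as points for each of the 4 libraries, with 95% Poisson intervals as error bars. Both EAE libraries sit below the naive library of the same sort in microglia-like barcodes (3129 against 4918, 3413 against 5226), and the unnamed cluster below the microglia-like point of its own library.

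Col27a1 was the microglial collagen past 2-fold in TRAIL-, with 140 and 27 UMIs, 284 and 138 CPM, 0.484 (0.308 to 0.735). After thinning the ratio was 0.835. In TRAIL+ it was at 267 and 221 CPM, 0.830 (0.733 to 0.938), an interval that overlaps that of TRAIL- at its end. Col15a1 was at 0.558 (0.188 to 1.38) in TRAIL- and 0.999 (0.731 to 1.36) in TRAIL+, and Igfbp7 at 0.866 (0.376 to 1.83) in TRAIL-. The Igfbp7 ratio turned to 1.88 (1.00 to 3.49) at a mitochondrial limit of 10% and to 2.28 (0.453 to 10.6) after thinning. In TRAIL+ microglia-like barcodes 8 genes could be compared, with 1 at least 2-fold higher against 4.7% of 9972 genes and 1 lower against 1.47% (6.18% either way). The higher gene was Fn1 (64 and 73 UMIs, 2.03 (1.43 to 2.88)) and the lower one Lamc1 (32 and 8, 0.444 (0.177 to 0.985)). Col6a3 (0.937 (0.649 to 1.34)) was within counting error of 1, and Nid2 was at 0.604 (0.333 to 1.05). Endothelial markers in microglia-like barcodes were at 90.6 and 103 CPM and monocyte markers at 398 and 490.3 in naive and EAE TRAIL+. Their part in the Fn1 and Lamc1 values was not tested.

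The classes that held fibronectin differed in EAE. In naive TRAIL- endothelial-like barcodes held 92.1% (90.7 to 93.3) of the Fn1 UMIs and monocyte- or macrophage-like ones 3.20% (2.43 to 4.12), and in EAE TRAIL- 51.1% (48.9 to 53.2) and 44.2% (42.1 to 46.3). The number of monocyte-like barcodes went from 18 to 221, and their Fn1 UMIs from 57 to 956, while the level in the class was 1186 (898 to 1536) and 1631 (1529 to 1738) CPM. In naive TRAIL+ the 22 monocyte-like and 58 border macrophage-like barcodes had 0 Fn1 UMIs, and in EAE TRAIL+ 134 monocyte-like barcodes had 722, 1897 (1761 to 2040.1) CPM. In the monocyte- or macrophage-like class of TRAIL- 1 of 3 matrix genes compared was at least 2-fold lower, Sparc, against 11.9% of 3325 genes, and none was higher, against 31.1% (43.0% either way). Its 12 naive UMIs came from 20 barcodes, 2 of them border macrophage-like, and the EAE class of 222 had 55.

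Choroid plexus-like barcodes numbered 89 in naive and 41 in EAE TRAIL-. Of 7 matrix genes compared there 1 was at least 2-fold higher, against 4.89% of 2883 genes, and 1 lower, against 11.0% (15.9% either way). Igfbp7 had 26 and 44 UMIs, 76.2 and 272 CPM, 3.57 (2.15 to 6.04), and Col8a1 47 and 10, 0.449 (0.202 to 0.901). Sparc was at 0.501 (0.287 to 0.835). The basement membrane genes together were at 1.51 (1.05 to 2.16), and Vtn, a pericyte marker, was also at least 2-fold higher there. Pericyte markers in this class were at 275 CPM in naive and 507 in EAE (13 of 14 seen in each, Higd1b and Foxf2 at 0 in turn) and endothelial markers at 357 and 241 (15 and 11 of 15 seen). Their part in the Igfbp7 value was not tested. The collagen most typical of this class, Col9a3, was at 378 and 309 CPM, 0.818 (0.578 to 1.14), and Col8a2 at 0.997 (0.525 to 1.82). In oligodendrocyte-like barcodes (75 and 35) only Sparc could be compared. It was higher, with 29 and 41 UMIs, 2.28 (1.38 to 3.80), where 7.3% of 1137 genes were at least 2-fold higher and 14.2% lower (21.5% either way). The median mitochondrial share of this class was 5.03% in naive and 9.61% in EAE, and microglia markers were at 199.8 and 335 CPM (9 and 11 of 14 seen). Their part in the Sparc value was not tested.

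Over all kept barcodes of the TRAIL- libraries the matrix genes were lower in EAE as a set. This sum moves with the share of each class, and fewer cells of a type cannot be told apart from less RNA per cell there. Of 42 genes compared, 0 were at least 2-fold higher, against 7.45% of 12008 genes, and 10 were lower, against 8.5% (15.9% either way). The median log2 ratio was -0.53 for the 42 and -0.13 for all genes. The sum over the 56 genes went from 9097 to 7683 CPM, 0.845 (0.829 to 0.861). The 10 were Col1a1 (0.365), Col3a1 (0.440), Col6a1 (0.426), Col6a5 (0.464), Col9a3 (0.388), Col12a1 (0.481), Col14a1 (0.310), Col15a1 (0.392), Col23a1 (0.342) and Col25a1 (0.230). None is a basement membrane gene, but Lama1 (12 and 3 UMIs) and Lamb3 (7 and 4) were under the minimum and not compared. Col4a4 was close to the limit at 0.519, and at 0.321 after thinning to 500 UMIs. After thinning to 500 UMIs Col9a3 was at 1.13 and Col25a1 at 0.848, and 5 genes in place of 10 were lower. A minimum of 100 UMIs per gene left 4. The share of all genes was not computed for these settings. Fibroblast-like barcodes, the class with most naive UMIs of Col1a1, Col6a1, Col12a1 and Col15a1, were 30 in naive and 14 in EAE, and choroid plexus-like ones, with most of Col9a3, were 89 and 41. Mgp went from 1717 to 2629 UMIs over the fraction, 1.66 (1.56 to 1.76), and Serpinh1 from 1251 to 611, 0.529 (0.480 to 0.583).

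The share of all matrix UMIs held by each class shifted from endothelial-like to mural barcodes. In naive TRAIL- endothelial-like barcodes held 43.0% (42.4 to 43.7) of them, with 40.5% of the library's UMIs, and mural ones 35.4% (34.8 to 36), with 15.7%. In EAE TRAIL- endothelial-like barcodes held 28.1% (27.5 to 28.7) (of 21.8% of the UMIs) and mural ones 49.9% (49.2 to 50.7) (of 18.3%). Mural barcodes thus held more of the matrix UMIs than of all UMIs in both libraries. Fibroblast-like barcodes did so too, with 5.79% from 2.18% in naive and 3.65% from 1.06% in EAE. By gene, the mural share in naive and EAE was 81.8% and 92.8% for Lama2, 81.0% and 88.8% for Nid1, 73.7% and 87.8% for Lamc1 and 70.8% and 76.9% for Mgp.

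In the TRAIL+ libraries vascular barcodes were few, 55 endothelial-like and 16 mural in naive and 4 and 3 in EAE, and 12 of 25 genes compared over all kept barcodes were at least 2-fold lower in EAE, against 6.82% of 12309 genes (12.6% either way). Mgp went from 345 to 8 UMIs (0.0225), Serpinh1 from 111 to 4 (0.0349) and Igfbp7 from 373 to 57 (0.148). Of the naive Mgp UMIs, 71.0% lay in 4 fibroblast-like barcodes. The 1 gene at least 2-fold higher, against 5.83%, was Fn1, with 163 and 933 UMIs, 5.54 (4.69 to 6.59).

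Genes that make, cut or bind these matrix proteins were taken from 5 lists chosen by function, with no gene of the set among them. In endothelial-like barcodes 14 of 30 collagen-modifying enzymes could be compared, with 0 at least 2-fold higher, 2 lower and a median log2 ratio of 0.10, beside -0.05 for all genes. Of all genes compared in this class 4.72% were higher and 6.65% lower. Colgalt2, which adds sugars to collagen, had 92 and 19 UMIs in naive and EAE (0.417 (0.240 to 0.689)). Of 12 matrix proteases and inhibitors 0 were higher and 2 lower (median -0.06), the membrane proteases Mmp15 (0.347 (0.165 to 0.663)) and Mmp25 (0.280 (0.0859 to 0.717)). None of 4 non-integrin matrix receptors (median -0.12) and none of 19 genes of the TGF-beta pathway (median -0.15) passed 2-fold. Of 15 other matrix proteins 2 were higher and 1 lower (median -0.12): Ccn2, a matrix-bound growth regulator, with 55 and 110 UMIs (4.04 (2.90 to 5.69)), the netrin Ntn4 (2.75 (1.75 to 4.35)) and the fibulin Fbln2 (0.412 (0.186 to 0.823)).

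In mural barcodes none of 19 collagen-modifying enzymes (median log2 ratio 0.28, beside -0.04 for all genes) and none of 9 receptors (median -0.05) passed 2-fold. Of all genes compared in this class 4.51% were higher and 5.98% lower. Of 21 other matrix proteins 3 were higher and 0 lower (median 0.26). These were Spp1 (osteopontin), with 33 and 166 UMIs (4.66 (3.20 to 7.0)), the basement membrane glycoprotein Tinagl1 (2.29 (1.23 to 4.49), and 1.44 (0.722 to 2.98) in pericyte-like barcodes alone) and the collagen-binding proteoglycan Dcn, with 44 and 108 (2.28 (1.59 to 3.31)). Dcn is also 1 of the fibroblast markers given above. Of 10 proteases and inhibitors 1 was higher and 2 lower (median -0.52), Adamts4 (2.44 (1.19 to 5.42)), Adam17 (0.309 (0.120 to 0.711)) and the inhibitor Timp2 (0.371 (0.184 to 0.707)). Of 11 genes of the TGF-beta pathway 1 was higher, the secreted target Tgfbi (2.12 (1.10 to 4.30)), and 1 lower, Id1 (0.386 (0.165 to 0.838)), with a median of 0.35.

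In microglia-like barcodes 1 of 10 collagen-modifying enzymes was higher and 2 were lower (median log2 ratio 0.06, beside -0.09 for all genes). Of all genes compared in this class 7.84% were higher and 11.9% lower. The lower ones were Plod3, a lysyl hydroxylase (0.303 (0.140 to 0.585)), and P4ha1, a prolyl hydroxylase (0.391 (0.234 to 0.621)), and the higher one, P3h2, had an interval that holds 1. Of 8 proteases and inhibitors 1 was higher and 1 lower (median -0.07), Adam15 (2.51 (1.43 to 4.4)) and Adam17 (0.439 (0.230 to 0.781)). Of 5 receptors 1 was higher and 1 lower (median -0.05), both syndecans: Sdc3 with 20 and 33 UMIs (4.14 (2.31 to 7.62)) and Sdc4 with 99 and 18 (0.457 (0.260 to 0.759)). Of 13 genes of the TGF-beta pathway 0 were higher and 2 lower (median -0.46), the receptor Tgfbr1, with 465 and 86 UMIs (0.464 (0.365 to 0.586)), and the inhibitor Smad7 (0.460 (0.285 to 0.715)). Neither of 2 other matrix proteins passed 2-fold (median 0.04).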

How the data were processed

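The authors deposited 1 table of UMI counts per library, barcodes by gene symbols, without scaling, as the whole numbers in the files show. The submitters' processing notes name Bowtie and GRCm38. The sources used here give no version, no annotation and no statement on strand. Of the 56 genes, 19 overlap another gene on the same strand and 25 one on the other strand in the GENCODE annotation of GRCm38, so some reads cannot be told apart.

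Barcodes were kept with at least 500 UMIs and at most 20% mitochondrial counts. Scrublet in scanpy 1.11.5 (expected rate 5%) called doublets per library. Its calls were 41 in naive TRAIL-, 28 in EAE TRAIL-, 4 in naive TRAIL+ and 4 in EAE TRAIL+, under 0.5% in both TRAIL+ libraries. Kept UMIs were 2689881, 2483010, 3625300 and 3743804 in that order. Clustering (2000 variable genes, 30 components, 15 neighbours, Leiden resolution 1, seed 0) left out all 63 gene columns that matched the names. It was run in 2 rounds, the second on clusters without an immune name. A cluster was named where at least 3 markers of 1 type were among its 50 leading genes and in 20% of its cells.

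UMIs were summed per library and class. Levels are CPM with exact Poisson 95% intervals, and ratios and shares have exact Clopper-Pearson intervals (SciPy 1.17.1). Classes with at least 20 barcodes in each library and genes with at least 30 UMIs over both were compared, and counted past 2-fold. Every gene of the set with at least 200 kept UMIs (21) is given by class. The others are given by counts, and by name where compared. From the function lists, the 3 highest and 3 lowest ratios past 2-fold with an interval that excludes 1 are named. The comparison was run on simulated Poisson counts without spread between barcodes or mice. The intervals assume the same model, so this run checked the calculation and not how the intervals suit these data. Scaling with edgeR 4.0.16 and DESeq2 1.42.0 was tried as an alternative, next to other filters, clusterings and thinning to 500 UMIs. The genes, lists and comparisons were chosen with earlier results of these data known. A gene column under the minimum is not reported here.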

Additional observations from a re-analysis of the deposited data

Results flagged for a closer look

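Several matrix genes had ratios of EAE over naive on opposite sides of 1 in 2 cell classes or sorts, each with a counting interval that excludes 1. None of these differences was tested, since each group is 1 library.

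Mgp was higher in EAE over all kept barcodes of TRAIL- (1.66) and lower over those of TRAIL+ (0.0225), where 71.0% of the naive UMIs lay in 4 fibroblast-like barcodes. Col4a1 was lower in endothelial-like barcodes (0.686) and higher in fibroblast-like ones (2.29). Fn1 was higher in endothelial-like (1.36) and lower in fibroblast-like barcodes (0.238). Igfbp7 was higher in endothelial-like (1.34), mural (1.09) and choroid plexus-like barcodes (3.57) and lower in fibroblast-like ones (0.670). Each fibroblast-like value rests on 30 naive and 14 EAE barcodes, too few for the comparison. Pericyte markers were higher in EAE in the fibroblast-like and choroid plexus-like classes, and their part in these values was not tested. Sparc was lower in endothelial-like (0.633), mural (0.733), microglia-like (0.636) and choroid plexus-like barcodes (0.501). It was higher in oligodendrocyte-like ones (2.28), which had 29 and 41 Sparc UMIs. Microglia markers were also higher in EAE in that class, and their part in the Sparc value was not tested.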

How the results depend on the processing

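No paired analysis was possible because each group is 1 library and the labels carry no replicate numbers. With 1 library per group the spread between mice is unknown, and depth limits the scarce genes: 35 of 56 had under 200 kept UMIs. Of 87 single-gene ratios in endothelial-like, mural, microglia-like and all kept barcodes, 58 stayed on 1 side of 1 under every alternative. Only Col9a3 over all kept barcodes crossed it after being past 2-fold, from 0.388 to 1.13 after thinning. Each summary value was set against its alternatives in turn. In 88 of these comparisons it stayed within its limit and in 71 it moved further. The cause was not tested. Scaling by TMM or DESeq2 shifted the median log2 ratio of all kept barcodes by 0.13. Under the alternatives the share of all genes past the limit was not computed, except in single endothelial clusters. The counts of genes given below therefore cannot be set beside all genes.

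With TMM or DESeq2 factors the endothelial-like sum of all genes was 1.06 of naive with both, the sum over all kept barcodes 0.923 and 0.925, and 1 gene in place of 0 was higher there. A minimum of 1000 UMIs per barcode gave 0.899 for that sum, 0 lower genes in endothelial-like and 1 in mural barcodes, and shares of the matrix UMIs (naive and EAE) of 28.5% and 20.9% for endothelial-like, 23.1% and 45.1% for mural and 17.4% and 4.71% for microglia-like barcodes. A mitochondrial limit of 10% gave 0.811 for all kept barcodes, 1 lower and 0 higher in mural ones, and shares of 43.9% and 30.4% for endothelial-like, 48.7% for EAE mural and 4.08% for EAE microglia-like barcodes. With doublet calls kept 1 mural gene was lower and the EAE microglia-like share was 4.24%. Clustering with all genes gave 1 lower and 0 higher in mural barcodes and 4.28% for EAE microglia-like ones. Resolution 2 gave 1 lower mural gene and shares of 42.3% (naive endothelial-like), 50.7% (EAE mural) and 5.22% (EAE microglia-like). Naming by markers alone gave 1 lower mural gene and shares of 34.0% and 48.1% for mural and 10.1% for EAE microglia-like barcodes. With at most 1 UMI of other vascular markers 2 endothelial-like genes were lower, 0 mural genes were higher, the mural sum was 0.975, and the shares were 28.4% and 20.2% for endothelial-like and 22.9% and 28.2% for mural barcodes.

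Thinning to 500 UMIs gave sums of 0.931 over all kept and 0.764 in microglia-like barcodes, 5 lower genes over all kept, 1 lower and 0 higher in mural barcodes, and shares of 45.4% and 29.8% for endothelial-like, 42.3% and 57.9% for mural and 7.0% and 2.85% for microglia-like ones. A 1.5-fold limit counted 4 lower in endothelial-like, 5 lower and 3 higher in mural, and 21 lower and 2 higher over all kept barcodes. A minimum of 100 UMIs left 0 lower in endothelial-like, 0 lower and 0 higher in mural, and 4 lower over all kept barcodes. With no minimum the counts were 13 lower and 12 higher in endothelial-like, 14 lower and 8 higher in mural, and 2 higher over all kept barcodes. The share of all genes was not computed at these limits. Alternatives chosen after seeing the data were the microglia-like class joined with the C4b-led and Cd74-led cluster (sum 0.604), single endothelial clusters (2 lower and 0 higher in the Gkn3-led one, 0 lower in the Ctla2a-led one) and leaving out the richest barcode of a gene.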

Other observations

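Over all kept barcodes of the TRAIL- libraries, where the makeup of the fraction also differed, the lists of genes that act on the matrix split by list. Of 40 other matrix proteins 4 were at least 2-fold higher in EAE and 16 lower, with a median log2 ratio of -0.69, beside -0.13 for all genes. Of all genes compared 7.45% were higher and 8.5% lower. Thbs1 (thrombospondin 1) had 202 and 2277 UMIs (12.2), Emilin2 was at 9.26 and Spp1 at 3.69, while the small proteoglycans Lum (0.108) and Fmod (0.169) and the brain proteoglycan Bcan (0.206) were lower. Of 24 proteases and inhibitors 3 were higher and 5 lower (median -0.10): Mmp19 (7.72), Mmp8 (4.55) and Mmp12 (2.86) against Mmp9 (0.106), Ctsk (0.280) and Adamts1 (0.408) among the lower ones. Of 14 receptors 2 were higher and 1 lower (median -0.07), with the hyaluronan receptor Cd44 at 42 and 977 UMIs (25.2), Sdc1 at 4.60 and Ddr1, a collagen receptor, at 0.432. Of 25 collagen-modifying enzymes 1 was higher, the crosslinking enzyme Tgm2 with 460 and 1800 UMIs (4.24), and 5 were lower (median -0.10), among them Colgalt2 (0.259), Pcolce2 (0.380) and Plod2 (0.449). Of 21 genes of the TGF-beta pathway 3 were higher and 2 lower (median -0.37): Tgfbi with 72 and 980 UMIs (14.7), Tgfb1 (2.14) and Tgif1 (2.05), against Id1 (0.311) and Tgfb2 (0.399). Lum, Bcan and Thbs1 were among the markers that named the fibroblast-like, astrocyte-like and monocyte-like classes. Fibroblast-like barcodes were 30 in naive and 14 in EAE, and astrocyte-like ones 24 and 3. Monocyte- or macrophage-like barcodes were 20 in naive and 222 in EAE. The part of these class numbers in the values was not tested.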
